A study of Mus musculus with 2 samples.

Results

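The genes described here build and resolve mitotic chromosomes. They are the 2 topoisomerase II genes Top2a and Top2b, Mki67, which codes for Ki-67, the shared condensin core genes Smc2 and Smc4, the condensin I subunit genes Ncapd2, Ncapg and Ncaph, and the condensin II subunit genes Ncapg2 and Ncapd3. They were chosen by name from the gene symbols of the count matrices, and all 10 of 10 were found among 27998 listed genes. The third condensin II gene, Ncaph2, is not in the set and is given only where a ratio needs it.

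Both libraries were made from peripheral retina of mice at postnatal day 8, the area in which the alphaCre driver is active. The DKO library has the genotype alphaCre, Rbf/f, p107-/-, so that Rb is deleted where Cre acts and p107 is missing in every cell, and the labels call it tumor-prone. The DKO_Skp2het library carries the same alleles and in addition skp2+/-, and the labels call it tumor-resistant. Each genotype is represented by 1 library, the number of animals behind a library is not given in the sources used here, and there is no retina with intact Rb or p107 among them. No difference between the libraries therefore has a replicate check, no test was made, and intervals cover counting error only.

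Condensin complexes are rings of Smc2 and Smc4 closed by a kleisin subunit and loaded with a pair of HEAT-repeat subunits, and they extrude loops of DNA to shape mitotic chromosomes. Condensin II stays in the nucleus through interphase and starts to build the chromosome axis in prophase, while condensin I reaches chromosomes after the nuclear envelope breaks down. Topoisomerase II alpha (Top2a) untangles sister DNAs in dividing cells, topoisomerase II beta (Top2b) is the form that persists in postmitotic cells such as neurons, and Ki-67 coats mitotic chromosomes and keeps them apart.

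The sequences upstream of 5 of the genes are printed because these genes behaved differently along the cell cycle below. Top2a, Mki67 and Ncapg were high in the G2 and M positions, Ncapg2 was low there, and Top2b was not raised in dividing cells. Each run is the part of the 250 bases before the RefSeq start (GRCm38.p6) that lies outside the gene in the GENCODE annotation, on the strand of the gene. Capitals mark every match, on either strand, to the cell cycle homology region (CHR, TTTGAA or TTCGAA), the CCAAT box (CCAAT) and an E2F motif (TTTNNCGC). The Top2a run is chr11:99024190-99024439 (minus strand), that of Mki67 is chr7:135716380-135716629 (minus), that of Ncapg is chr5:45669675-45669918 (plus), that of Ncapg2 is chr12:116405186-116405401 (plus) and that of Top2b is chr14:16364956-16365178 (plus).
Top2a: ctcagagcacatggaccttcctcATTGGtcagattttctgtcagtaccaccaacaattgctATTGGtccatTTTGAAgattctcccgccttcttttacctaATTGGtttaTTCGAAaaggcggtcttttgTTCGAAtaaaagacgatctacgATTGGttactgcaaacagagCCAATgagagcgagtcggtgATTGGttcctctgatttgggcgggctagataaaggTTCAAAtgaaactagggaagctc
Mki67: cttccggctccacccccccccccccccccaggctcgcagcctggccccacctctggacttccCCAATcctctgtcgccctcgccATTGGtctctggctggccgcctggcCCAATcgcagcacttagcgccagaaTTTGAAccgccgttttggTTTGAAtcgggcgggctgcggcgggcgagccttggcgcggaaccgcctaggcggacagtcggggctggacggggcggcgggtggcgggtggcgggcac
Ncapg: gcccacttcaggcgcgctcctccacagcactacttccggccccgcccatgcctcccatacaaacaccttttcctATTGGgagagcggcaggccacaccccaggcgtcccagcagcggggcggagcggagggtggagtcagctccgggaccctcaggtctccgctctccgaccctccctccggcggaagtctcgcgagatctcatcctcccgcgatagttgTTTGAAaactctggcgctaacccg
Ncapg2: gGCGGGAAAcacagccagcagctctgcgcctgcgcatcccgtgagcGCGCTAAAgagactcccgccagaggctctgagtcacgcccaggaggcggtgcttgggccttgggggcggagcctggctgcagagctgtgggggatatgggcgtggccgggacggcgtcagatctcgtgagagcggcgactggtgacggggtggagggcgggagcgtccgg
Top2b: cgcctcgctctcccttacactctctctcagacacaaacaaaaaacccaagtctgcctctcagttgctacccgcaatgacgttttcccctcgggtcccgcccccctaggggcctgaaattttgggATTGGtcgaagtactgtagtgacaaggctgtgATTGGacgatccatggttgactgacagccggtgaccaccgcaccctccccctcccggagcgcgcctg
The annotation places a transcript of another gene over some of the bases of the Ncapg run (1600023N17Rik), the Ncapg2 run (D430020J02Rik) and the Top2b run (Gm48163).

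The printed Top2a run held 4 CHR and 6 CCAAT matches, the Mki67 run 2 and 3, and the Ncapg run 1 and 1. The Top2b run held 2 CCAAT matches and no CHR match, and the Ncapg2 run held 2 E2F matches. The Ncapg2 window also held a CHR match 18 to 13 bases before the RefSeq start, inside the annotated gene and so outside the printed run. Of the 10 whole windows of 250 bases available for 9 of the genes (Ncapd3 has 2 windows), 7 held a CHR, 6 a CCAAT box, 5 both and 2 the E2F motif. Among all 32851 RefSeq promoter windows of the same length the shares were 17.2% for the CHR, 33.9% for the CCAAT box, 6.02% for both and 4.28% for the E2F motif. These are matches of letters and not measured binding sites.

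The DKO library held 3621 barcodes with a median of 4939 UMIs (unique molecular identifiers, 1 per captured transcript) and 24413761 UMIs in all, and the DKO_Skp2het library held 5196 barcodes with a median of 3874 and 25766024 UMIs in all. After filters and doublet removal, 3515 and 4978 cells were kept, and 1896 DKO_Skp2het cells had fewer UMIs than any DKO barcode (minimum 3420). The libraries shared 30 barcode sequences. Skp2 stood at 80.7 CPM (the gene's UMIs over all UMIs of the population, per 1000000) in DKO and 56.7 CPM in DKO_Skp2het, a ratio of 0.702 with a 95% interval of 0.654 to 0.754. Rb1 (ratio 0.981) and Rbl1, the p107 gene (ratio 0.993), differed little, and transcript ends counted by a 3′ kit need not show a deletion elsewhere in a gene. A cell was called dividing when it held at least 3 UMIs of 26 core proliferation genes, none of them among the 10, after every cell was thinned to 1500 UMIs. Most of the 26 are genes of G2 and mitosis, so a cycling cell without such transcripts could be counted among other cells. Dividing cells made up 54.3% of kept DKO cells (52.6% to 55.9%, exact binomial interval) and 44.0% of kept DKO_Skp2het cells (42.6% to 45.4%).

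Dividing cells held far more transcript of 9 of the 10 genes than other cells, and Top2b was the exception. In both libraries these 9 genes were at least 2-fold higher in dividing cells, against 4.57% of the 11040 genes with at least 100 UMIs. None of the 10 was at least 2-fold lower in both, against 8.6% of genes. The median log2 difference over the 10 genes was 2.12 in DKO and 2.10 in DKO_Skp2het, beside -0.04 and -0.05 over all genes.

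Ncapg, a HEAT-repeat subunit of condensin I, had the largest ratio of the set. It stood at 6.22 CPM in other and 80.2 CPM in dividing DKO cells, a ratio of 12.9 (9.96 to 17.0), and at 5.65 and 93.0 CPM in DKO_Skp2het, a ratio of 16.5 (12.9 to 21.3). Mki67 followed, with 56.9 and 436.5 CPM in DKO (ratio 7.67) and 46.5 and 412.8 CPM in DKO_Skp2het (ratio 8.88). Top2a was the most counted of the 10 and rose from 202.1 to 1092 CPM in DKO and from 178.0 to 1076 CPM in DKO_Skp2het, ratios of 5.40 and 6.04. The core genes Smc4 (ratios 6.84 and 6.58) and Smc2 (5.25 and 5.53) lay in the same range. The condensin I genes Ncapd2 (4.02 and 3.71) and Ncaph (3.87 and 3.84) came next, and the condensin II genes Ncapg2 (2.95 and 2.74) and Ncapd3 (2.54 and 2.50) had the smallest ratios of the 9. Top2b went the other way, from 152.2 CPM in other to 115.8 CPM in dividing DKO cells (ratio 0.761, 0.708 to 0.817) and from 139.2 to 100.9 CPM in DKO_Skp2het (0.725, 0.672 to 0.781).

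Cells not called dividing also held UMIs of these genes. Top2a had a UMI in 41.0% of other cells in DKO and 35.1% in DKO_Skp2het, and after thinning to 1500 UMIs in 23.1% and 20.7%. Microglia-like cells, which are expected to hold little of it, had a thinned share of 0% of 31 cells in DKO (exact upper bound 11.2%) and 2.44% of 41 cells in DKO_Skp2het (upper bound 12.9%). The thinned share with Top2a in other cells was above the upper bounds of the microglia-like cells. The other cells had median depths of 4569.5 and 3536 UMIs and the microglia-like cells 9247 and 7519. Thinning equalizes total UMIs and not the background of a barcode, so the few, deeper microglia-like cells could not settle its part. For Mki67 the thinned shares in other cells were 7.53% and 6.60%, against 0% in both microglia-like groups (upper bounds 11.2% and 8.60%), so a level below those bounds could not be told from background. For Ncapg they were 0.622% and 0.932%, and the microglia-like values of 3.23% and 0% were not lower in both libraries.

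Position in the cell cycle was measured in dividing cells as the share of G2M gene UMIs among S and G2M gene UMIs, from 45 S genes and 50 G2M genes that exclude the 10. Dividing cells of both libraries together were split at the quartiles of this share, 57.7%, 73.9% and 88.8%, into 4 bins that run from S to G2 and M. Bins 1 to 4 held 357, 529, 535 and 486 DKO cells and 667, 495, 489 and 538 DKO_Skp2het cells. The same cells were also split into 10 fine bins. As a check of the order, Cdt1, a replication licensing gene, peaked in fine bin 2 or 3, the histone gene Hist1h1b in fine bin 5 or 6, and the mitotic genes Ccnb1 and Plk1 in fine bin 10. None of these 4 is among the S and G2M genes, but Ccnb1 and Plk1 are core genes that helped to call cells dividing. The bins are ranges of a continuous share and not types, and 320 dividing cells lay within 2 percentage points of the last cut. Median depths of bins 1 to 4 were 4588, 5933, 5246 and 4882 UMIs in DKO and 3706, 4436, 4432 and 4567 UMIs in DKO_Skp2het.

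All but Top2b were already raised at the S end of the cells called dividing. The call rests mostly on mitotic genes, so S cells without them could be among the other cells. After thinning, Cdt1 was found in 8.33% and 7.64% of other cells and in 7.97% and 8.54% of dividing cells (DKO and DKO_Skp2het). In bin 1, 9 of 10 genes were at least 2-fold above other cells in both libraries, against 2.71% of genes, and none was 2-fold below, against 7.55%. From bin 1 to bin 2 none of the 10 gained 2-fold in both, against 1.34% of genes, and none lost 2-fold, against 0.0284%. From bin 1 to bin 3, 3 gained 2-fold (Mki67, Smc2 and Ncapg), against 2.41%, and none lost it, against 0.774%. From the first to the last bin 4 of 10 did (Mki67, Smc2, Smc4 and Ncapg), against 4.84% of genes, and none was 2-fold lower in both, against 5.19%. This count of 4 fell to 0 when dividing cells had to hold 5 or more core UMIs and to 2 when position was split into 3 bins.

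Over the pooled dividing cells of each library, the topoisomerase II genes moved apart along this axis. The bins also differed in cell type, as described below, and its part in the fall of Top2b was not tested. Top2a (chr11:98992943-99024189, minus strand) stood at 676.1, 1007, 1286 and 1315 CPM in the 4 bins of DKO and at 685.5, 1075, 1269 and 1306 CPM in DKO_Skp2het. The last bin was 1.95-fold (1.83 to 2.07) and 1.91-fold (1.81 to 2.01) above the first, and the third bin already 1.90-fold and 1.85-fold. Top2b (chr14:16365179-16435462, plus strand) stood at 128.7, 123.3, 116.0 and 91.4 CPM in DKO and at 113.0, 104.8, 98.5 and 86.4 CPM in DKO_Skp2het. Its last bin was below its first in both libraries, with ratios of 0.710 (0.596 to 0.846) and 0.764 (0.646 to 0.903). The ratio of Top2a to Top2b UMIs accordingly went from 5.25 to 14.4 in DKO and from 6.07 to 15.1 in DKO_Skp2het.

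Mki67 (chr7:135689784-135716361, minus strand) rose through all 4 bins in both libraries. It stood at 237.3, 413.2, 491.5 and 563.6 CPM in DKO and at 200.5, 404.8, 510.9 and 552.9 CPM in DKO_Skp2het, a last bin 2.38-fold (2.15 to 2.63) and 2.76-fold (2.51 to 3.04) above the first. Over the fine bins it was highest in bin 9 in both libraries, at 564.1 and 589.2 CPM, and lowest in fine bin 1, at 162.9 and 142.0 CPM.

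The core subunits, which both condensins need, also rose. Smc2 (chr4:52439243-52488260, plus strand) stood at 246.4, 396.5, 509.4 and 588.4 CPM in DKO and at 242.7, 411.7, 563.4 and 569.0 CPM in DKO_Skp2het. Smc4 (chr3:69004738-69034623, plus strand) stood at 417.7, 727.8, 830.5 and 881.9 CPM in DKO and at 373.0, 743.9, 926.8 and 967.2 CPM in DKO_Skp2het. Their last bins were 2.39-fold and 2.35-fold (Smc2) and 2.11-fold and 2.59-fold (Smc4) above their first. The ratio of Smc4 to Smc2 UMIs stayed between 1.5 and 1.84 in all 8 bins.

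Of the condensin I subunits, Ncapd2 and Ncaph rose and then held, while Ncapg was highest in the last bin, by little in DKO. Ncapg (chr5:45669919-45700546, plus strand) went from 38.5 through 70.0 and 100.8 to 104.0 CPM in DKO and from 32.6 through 96.6 and 112.5 to 134.8 CPM in DKO_Skp2het, a last bin 2.70-fold (2.11 to 3.49) and 4.14-fold (3.31 to 5.22) above the first. Ncapd2 (chr6:125168007-125191701, minus strand), the other HEAT-repeat subunit, stood at 154.4, 205.4, 222.1 and 218.3 CPM in DKO and at 183.5, 242.1, 264.2 and 242.9 CPM in DKO_Skp2het. Ncaph (chr2:127103809-127133954, minus strand), the kleisin that closes the ring, stood at 61.8, 83.9, 86.6 and 87.3 CPM in DKO and at 53.9, 66.8, 80.8 and 73.2 CPM in DKO_Skp2het. For Ncapd2 and Ncaph the last bin was 1.32-fold to 1.42-fold above the first, and the intervals of the last over the third bin all held 1.

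The condensin II subunits fell at the G2 and M end. Ncapg2 (chr12:116405402-116463731, plus strand) stood at 66.4, 113.5, 82.6 and 41.1 CPM in DKO and at 81.1, 105.1, 92.5 and 30.3 CPM in DKO_Skp2het. Ncapd3 (chr9:27030175-27095315, plus strand) stood at 133.3, 156.0, 155.8 and 81.8 CPM in DKO and at 150.9, 163.7, 188.7 and 75.3 CPM in DKO_Skp2het. Both genes were thus highest in the middle bins and lowest in the last bin of dividing cells.

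From the third to the last bin Ncapg2 changed by a ratio of 0.497 (0.397 to 0.620) in DKO and 0.328 (0.254 to 0.420) in DKO_Skp2het, and Ncapd3 by 0.525 (0.448 to 0.614) and 0.399 (0.338 to 0.469). These 2 were the members at least 1.5-fold lower in both libraries, against 5.95% of 6671 genes, and none was 1.5-fold higher, against 2.92%. The 1.5-fold limit was chosen after these values were seen. Over the fine bins Ncapg2 was highest in bin 4 in both libraries, at 128.5 and 119.5 CPM, and lowest in fine bin 10, at 35.8 and 24.5 CPM. Ncapd3 was highest in fine bins 6 and 7, at 165.2 and 201.2 CPM, and lowest in fine bin 10, at 49.7 and 51.3 CPM. Ncaph2, the condensin II kleisin, did not fall with them: it stood at 106.3, 119.4, 128.0 and 138.0 CPM in DKO and at 107.4, 113.7, 133.2 and 138.0 CPM in DKO_Skp2het.

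**Figure D1:**
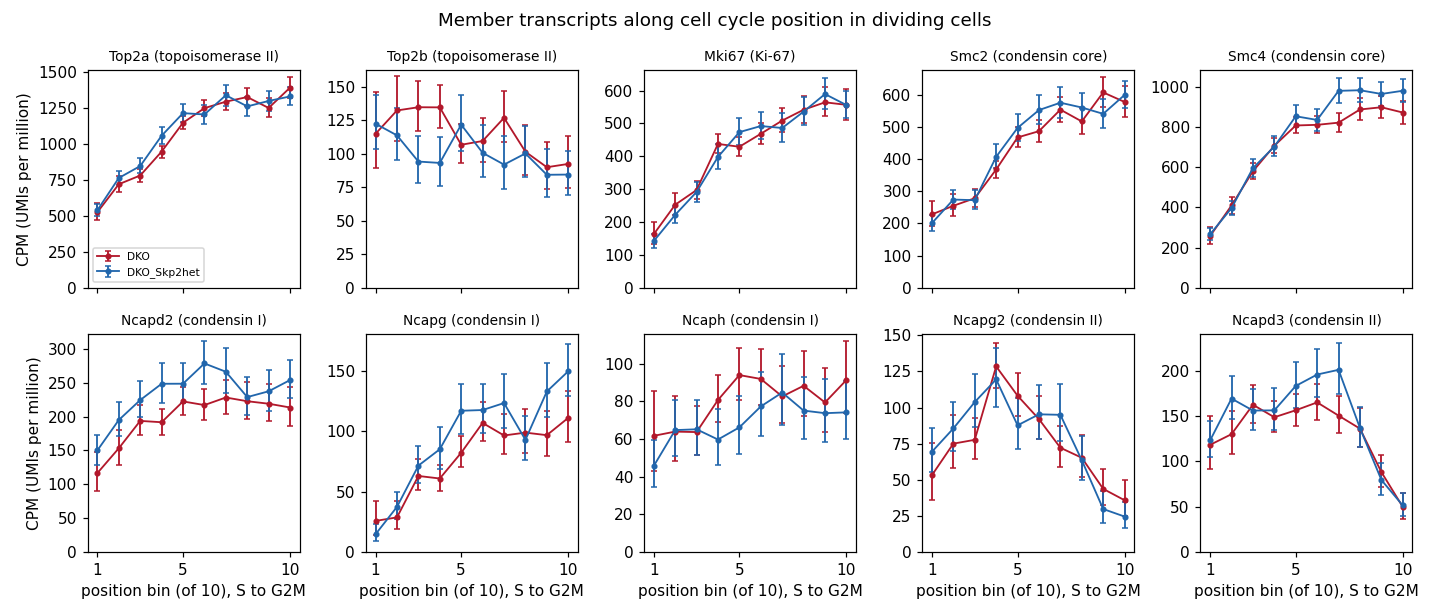
Level of each of the 10 genes (CPM, y axis from 0) in 10 fine bins of cell cycle position from S to G2M (x axis), in dividing cells of DKO (red) and DKO_Skp2het (blue), with exact 95% Poisson bars for counting error. Most genes climb and level off, Top2b drifts down, and the condensin II genes Ncapg2 and Ncapd3 fall in the last bins, to 24.5 to 51.3 CPM in fine bin 10.

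The balance of the complexes shifted with position. The ratio of condensin I UMIs (Ncapd2, Ncapg and Ncaph) to condensin II UMIs (Ncapg2 and Ncapd3) was 1.28, 1.33, 1.72 and 3.33 in the 4 bins of DKO and 1.16, 1.51, 1.63 and 4.27 in DKO_Skp2het. The last bin was 2.62 times the first in DKO and 3.67 times in DKO_Skp2het, and the intervals of the third and last bins did not overlap in either library (1.58 to 1.87 against 2.95 to 3.78, and 1.48 to 1.79 against 3.77 to 4.86). A 3′ kit tags each transcript once, and these ratios are read only for how they move, not as a ratio of proteins.

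The paired HEAT-repeat subunits carried the shift. Ncapg over Ncapg2 went from 0.579 to 2.53 in DKO and from 0.402 to 4.45 in DKO_Skp2het, and Ncapd2 over Ncapd3 from 1.16 to 2.67 and from 1.22 to 3.23. The kleisin pair did not move in this way, with Ncaph over Ncaph2 at 0.582 in the first and 0.633 in the last bin of DKO and at 0.502 and 0.530 in DKO_Skp2het. With Ncaph2 counted among the condensin II genes, the ratio of the complexes still rose, from 0.832 to 1.57 in DKO and from 0.795 to 1.85 in DKO_Skp2het. In cells not called dividing, the ratio without Ncaph2 was 0.95 in DKO and 1.00 in DKO_Skp2het.

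**Figure D2:**
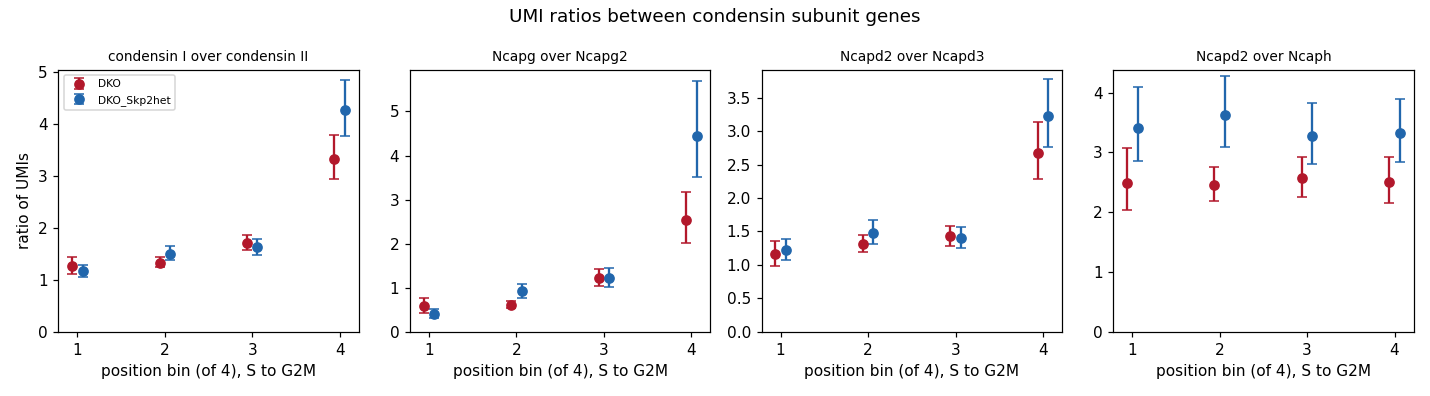
UMI ratios between condensin genes (y axis, linear, from 0) in the 4 bins of position (x axis) for DKO (red) and DKO_Skp2het (blue), with exact 95% bars for counting error. The ratio of condensin I to condensin II reaches 3.33 and 4.27 in the last bin, while Ncapd2 over Ncaph is level along position and higher in DKO_Skp2het in every bin.

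The bins differed in cell type, and this moved with the result. Müller glia-like cells made up 25.8% of cells of the first bin in DKO and 20.7% in DKO_Skp2het, and the last bin was mostly clusters 2 (45.1% and 36.6%), 4 (32.3% and 39.2%) and 13 (13.4% and 17.3%). No cluster held 20 cells of 1 library in both the first and the last bin, so the part of cell type in that contrast was not tested. The fall of condensin II from the third to the last bin could be measured within clusters. It was present in both libraries in cluster 2, which has no name (ratios 0.565 and 0.476), and in cluster 4, neurogenic progenitor-like (0.509 and 0.332), with all 4 intervals below 1. In the same cells condensin I had ratios of 0.968 to 1.07, and Ncapg alone had 0.785 to 1.25 with all 4 intervals holding 1. Top2b had ratios of 0.841 and 0.928 in cluster 2 and 0.989 and 0.903 in cluster 4, with all 4 intervals holding 1. Cluster 13 of DKO_Skp2het, the fifth comparison, gave 4.17 for condensin II, but with an interval of 0.670 to 172.3, since bin 3 of it held only 28 cells.

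Cluster 13 was led by Cdc20, Ccnb1 and Plk1, which are mitotic genes, and 98.7% of its DKO and 97.7% of its DKO_Skp2het cells were dividing. It had the highest ratio of condensin I to condensin II among clusters with at least 20 condensin II UMIs in a library, 6.83 (4.39 to 11.1) in DKO and 8.33 (5.44 to 13.3) in DKO_Skp2het, against 1.92 and 2.11 in cluster 2 and 2.23 and 2.35 in cluster 4. Top2a was lower there than in those clusters, at 761.9 and 529.0 CPM against 1324 and 1348 CPM in cluster 2 and 1548 and 1608 CPM in cluster 4. Since position within dividing cells and these clusters rest on overlapping cells, this is a second view of the same cells.

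Among the named classes Top2a, Mki67 and Smc4 were highest in neurogenic progenitor-like cells, and Top2b was higher in neuron classes than in those cells. Clusters were made without the 10 genes and the cell cycle lists and were named from fixed markers. Neurogenic progenitor-like cells (cluster 4, 337 DKO and 413 DKO_Skp2het cells, all dividing) held the most Top2a of the named classes, 1548 and 1608 CPM, with Mki67 at 508.3 and 500.8 CPM and Smc4 at 878.4 and 989.8 CPM. Top2b stood at 89.8 and 81.8 CPM in the same cells. Müller glia-like cells (cluster 3, 31.7% and 30.2% dividing) had Top2a at 397.8 and 362.4 CPM and Top2b at 83.7 and 94.0 CPM.

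Müller glia-like cells that were not called dividing kept a marked level of several of the genes. Top2a stood there at 345.7 CPM in DKO and 300.0 CPM in DKO_Skp2het and Ncapg2 at 68.0 and 52.0 CPM, beside 69.4 and 62.4 CPM of Ncapg2 in neurogenic progenitor-like cells. Ncapg was low in the same cells, at 7.47 and 9.29 CPM, against 122.4 and 139.1 CPM in neurogenic progenitor-like cells. Cluster 18, which has no name although 10 of 10 Müller glia markers were above 2-fold in it, held far less, with Top2a at 15.3 and 37.5 CPM and 1 and 2 condensin II UMIs. The mean log2 fold of these markers was 2.91 in cluster 18 and 1.30 in cluster 3, where 7 of 10 were above 2-fold. The levels of cluster 3 are thus not those of all cells with Müller glia markers.

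In neuron classes Top2b was the more counted topoisomerase II gene where few cells were dividing. In immature neuron-like cells (clusters 6 and 10) Top2b stood at 187.2 CPM in DKO and 195.0 CPM in DKO_Skp2het and Top2a at 233.2 and 119.1 CPM. In rod-like cells (clusters 11 and 16) the values were 182.6 and 191.0 CPM for Top2b and 210.0 and 128.7 CPM for Top2a. In bipolar-like cells (clusters 15 and 17) Top2b stood at 212.2 and 188.3 CPM and Top2a at 96.8 and 32.6 CPM. In amacrine-like cells (clusters 12, 20 and 23) Top2b stood at 156.8 and 148.3 CPM and Top2a at 40.5 and 44.0 CPM. The Top2b ranges of the neuron classes lay above those of the neurogenic progenitor-like and Müller glia-like classes in both libraries. They did not stand apart from every cluster with many dividing cells. Top2b was at 128.9 and 138.2 CPM in cluster 8 (96.5% and 95.8% dividing) and at 156.0 and 148.9 CPM in cluster 9 (67.5% and 58.5%), both without a name. Within the amacrine-like class, cluster 20 of DKO was at 102.6 CPM. Microglia-like cells had the lowest Top2b, 39.1 and 47.8 CPM, from 11 and 15 UMIs. Over the 44 profiles of a cluster in a library with at least 30 cells, log2 levels of Top2a and Top2b had a Pearson correlation of -0.24, a description of profiles that share 2 libraries and differ in depth.

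**Figure D3:**
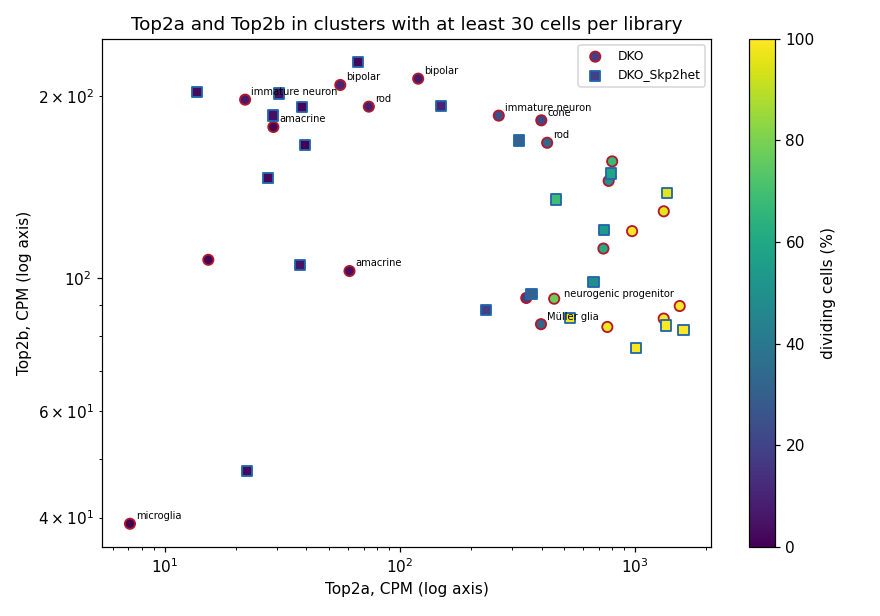
Top2a level (x axis, CPM, log scale) against Top2b level (y axis, CPM, log scale) for each cluster with at least 30 cells in a library, circles for DKO and squares for DKO_Skp2het, coloured by the percent of dividing cells, with class names at the DKO points. Neuron classes lie above and left of the neurogenic progenitor-like cluster, which is at 1548 CPM of Top2a in DKO. The microglia-like cluster is low for both. In DKO, rod-like cluster 16 (422.6 CPM of Top2a) and cone-like cluster 19 (399.0) reach the Top2a level of the Müller glia-like cluster (397.8).

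Not all neuron-like cells were without the cycling genes. In DKO 33.8% and in DKO_Skp2het 30.8% of cells in the rod-like cluster 16 were called dividing, and the dividing rod-like cells had Top2a at 659.2 and 658.3 CPM. Dividing immature neuron-like cells (83 in DKO and 38 in DKO_Skp2het) had Top2a at 640.5 and 718.4 CPM and Smc4 at 491.0 and 627.7 CPM, each below the neurogenic progenitor-like level. These dividing cells had Top2b at 190.3 and 151.1 CPM, above the 89.8 and 81.8 CPM of neurogenic progenitor-like cells. Cells in these dividing groups were deeper than their class (medians of 5943 and 5492.5 UMIs in immature neuron-like cells against 4528 and 3557), and the part of doublets that the score missed was not tested.

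**Figure D4:**
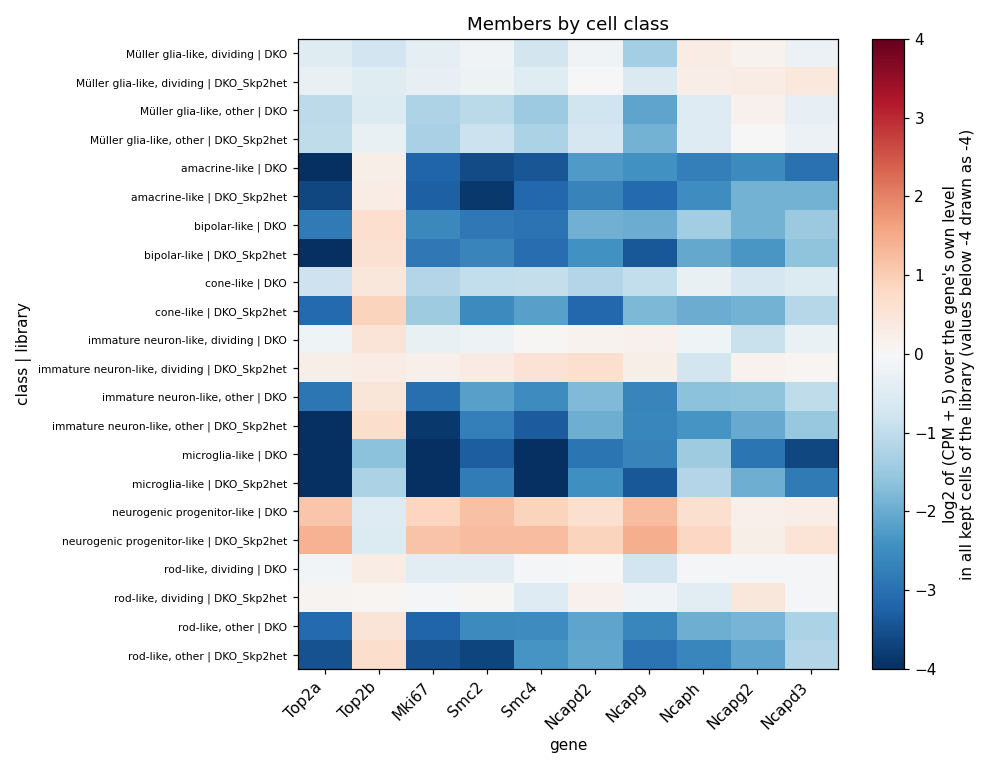
Level of each gene (columns) in each class and library (rows) as log2 of CPM plus 5 relative to the same gene over all kept cells of that library, with values below -4 drawn as -4. The 9 cycling genes are red in neurogenic progenitor-like cells and blue in neurons that were not called dividing, and Top2b has the opposite signs there.

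Between the libraries, 9 of the 10 genes were lower in DKO_Skp2het over all kept cells. The median difference shrank when dividing cells were compared with dividing cells, but not that of every gene. The median log2 difference over the 10 genes, DKO_Skp2het minus DKO on the scale of log2 CPM plus 5, was -0.19 over all kept cells, beside 0.02 over all 12405 genes, of which 44.3% were below 0. Among the 9, Ncapg turned to 0.15 where cells of DKO_Skp2het below the lowest DKO depth were left out and Ncapd3 to 0.01 with thinned counts, and the intervals of both ratios held 1. In dividing cells the median was -0.01 with 6 genes below 0, and in other cells -0.07 with 6 below 0. From all kept to dividing cells the log2 difference grew in size for Top2b (-0.11 to -0.19) and Ncapd2 (0.04 to 0.18). It also grew and changed sign for Ncapg (-0.04 to 0.20) and Ncapd3 (-0.04 to 0.06). It shrank for the other genes, with a change of sign for Smc4 (-0.18 to 0.02). One gene, Ncaph, was at least 1.25-fold lower over all kept cells, against 5.69% of genes, and none was 1.25-fold higher, against 9.37%. In dividing cells none passed in either direction, against 7.9% lower and 10.3% higher, and in other cells none did, against 8.15% and 8.58%. The share of dividing cells was smaller in DKO_Skp2het (44.0% against 54.3%), and its part in the all-cell difference was not tested beyond this split.

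Top2a had a ratio of DKO_Skp2het to DKO of 0.848 (0.830 to 0.868) over all kept cells and 0.985 (0.962 to 1.01) in dividing cells, where the levels were 1092 and 1076 CPM. Mki67 had 0.803 (0.775 to 0.833) over all and 0.946 (0.910 to 0.983) in dividing cells. Smc2 and Smc4 had 0.870 and 0.882 over all and 1.00 (0.963 to 1.04) and 1.01 (0.982 to 1.04) in dividing cells. In dividing cells the interval of Mki67 thus lay below 1, and those of the other 3 held 1. The values depended on how depth was handled. With every cell thinned to 1500 UMIs before summing, each cell also had the same weight. The log2 differences in dividing cells were then -0.11 for Top2a, -0.21 for Mki67, -0.19 for Smc2 and -0.10 for Smc4. After that thinning 75.3% of dividing DKO cells (73.3% to 77.2%) and 69.9% of dividing DKO_Skp2het cells (67.9% to 71.8%) had a Top2a UMI. With only cells at or above the DKO minimum of UMIs, unthinned, these log2 differences moved up instead. They were 0.03 for Top2a, -0.01 for Mki67, 0.05 for Smc2 and 0.08 for Smc4. Pooled over clusters, Top2b was lower in DKO_Skp2het, at 0.922 (0.876 to 0.970) over all, 0.871 (0.807 to 0.941) in dividing and 0.915 in other cells. The log2 difference of Top2b in dividing cells was -0.0043 with thinned counts. By cluster, the Top2b ratio was below 1 in 11 and above 1 in 11 of 22 clusters with at least 20 of its UMIs. Its interval lay below 1 in 1 cluster and above 1 in 1. The condensin II genes Ncapg2 (0.931, 0.851 to 1.02) and Ncapd3 (1.05, 0.980 to 1.12) had intervals that held 1 in dividing cells.

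Within condensin I the subunit genes went in different directions between the libraries. Ncaph was lower in DKO_Skp2het, at 56.3 and 42.0 CPM over all kept cells (ratio 0.746, 0.687 to 0.811) and at 81.8 and 68.2 CPM in dividing cells (0.834, 0.760 to 0.915). Ncapd2 was higher in dividing cells, at 204.4 and 232.0 CPM (1.14, 1.08 to 1.2), and Ncapg too, at 80.2 and 93.0 CPM (1.16, 1.07 to 1.26). With thinned counts the log2 differences in dividing cells were -0.37 for Ncaph, 0.17 for Ncapd2 and 0.06 for Ncapg. The UMI ratio of Ncapd2 to Ncaph was 2.45 to 2.57 in the 4 bins of DKO and 3.27 to 3.63 in those of DKO_Skp2het, so each DKO value lay below each DKO_Skp2het value, but the intervals of the libraries overlapped in 3 of the 4 bins. Over all dividing cells it was 2.50 (2.33 to 2.68) and 3.40 (3.14 to 3.69). In cells not called dividing it was 2.41 (2.04 to 2.84) and 3.52 (3.03 to 4.11). By cluster, Ncaph had a ratio below 1 in 14 of 14 clusters with at least 20 of its UMIs, with the interval below 1 in 2, and Ncapd2 above 1 in 11 of 16, with the interval above 1 in 5.

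**Figure D5:**
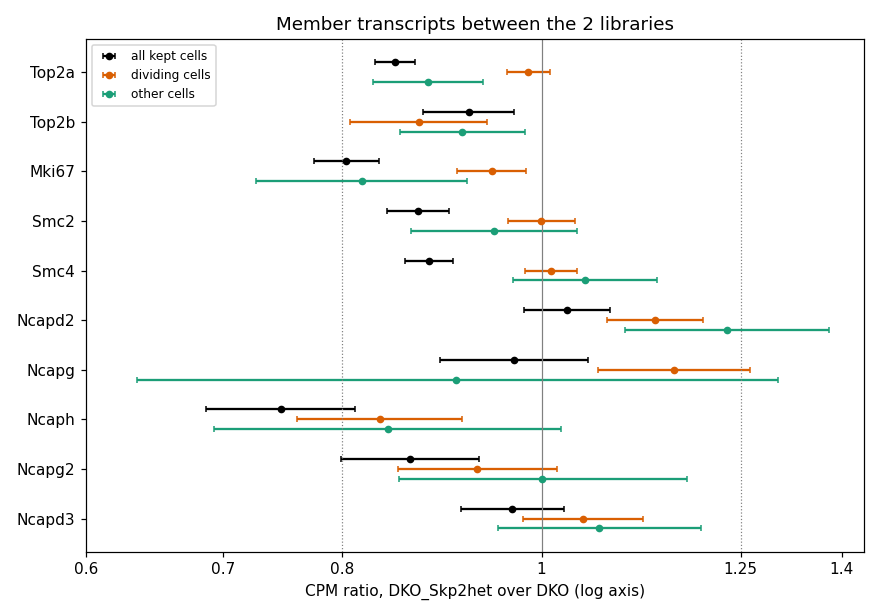
Ratio of CPM in DKO_Skp2het to DKO (x axis, log scale) for each gene in all kept cells (black), dividing cells (orange) and other cells (green), with exact 95% bars for counting error. The dotted lines mark 1.25-fold in each direction, and only the all-cell point of Ncaph, at 0.746, lies beyond them.

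The difference between the libraries was not even over cell classes. In neurogenic progenitor-like cells Top2a had a ratio of 1.04 (0.986 to 1.09) and Mki67 of 0.985 (0.898 to 1.08), while Ncapd2 had 1.24 (1.09 to 1.42) and Smc4 1.13 (1.05 to 1.21). In Müller glia-like cells Top2a had 0.911 (0.824 to 1.01) and Mki67 0.796 (0.668 to 0.948). Larger differences were found in neuron classes. In immature neuron-like cells Top2a had a ratio of 0.511 (0.441 to 0.591), Mki67 0.537, Smc4 0.623 and Ncaph 0.279 (0.147 to 0.496), while Top2b had 1.04 (0.913 to 1.19). The class pools cluster 6 (329 and 355 cells) with cluster 10 (79 and 162 cells), and within cluster 6 the ratios were 0.570 for Top2a, 0.581 for Mki67, 0.703 for Smc4 and 0.315 for Ncaph.

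Dividing cells were fewer there in DKO_Skp2het, 9.58% against 23.7% in cluster 6 and 2.47% against 6.33% in cluster 10. Split by that call, Top2a had a ratio of 1.12 (0.947 to 1.33) in the dividing immature neuron-like cells and 0.310 (0.225 to 0.421) in the others, with 28.4 against 91.8 CPM. The median depths of the latter were 4259 UMIs in DKO and 3531 in DKO_Skp2het, and whether depth or cells near the limit of the call entered this value was not tested. In rod-like cells Top2a had a ratio of 0.613 (0.502 to 0.746), Smc2 0.549 and Ncaph 0.304. In dividing rod-like cells Top2a had 0.999 (0.783 to 1.27), Smc2 1.19 (0.789 to 1.77) and Smc4 0.639 (0.449 to 0.894). In rod-like cells not called dividing Top2a had 0.637 (0.445 to 0.908), Smc2 0.329 (0.177 to 0.584) and Smc4 0.979 (0.713 to 1.34). In this class cluster 11 held 83 of 154 DKO and 147 of 212 DKO_Skp2het cells, and median depths were 6775.5 and 4462 UMIs.

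Cone-like cells (43 in DKO and 60 in DKO_Skp2het) showed the lowest Top2a ratio of the classes. Top2a stood at 399.0 CPM in DKO and 66.4 CPM in DKO_Skp2het, a ratio of 0.166 (0.116 to 0.233), Smc2 had 0.272 (0.165 to 0.432) and Ncapd2 0.201 (0.0759 to 0.453), while Top2b had 1.25 (0.972 to 1.61). Of the DKO cells 20.9% were called dividing and of the DKO_Skp2het cells 1.67%, and median depths were 11165 and 6639 UMIs. In cone-like cells not called dividing Top2a still had a ratio of 0.169 (0.0764 to 0.335), from 52 and 10 UMIs. The intervals of the other members held 1 there. Smc2 had 0.648 (0.325 to 1.27), Smc4 0.876 (0.540 to 1.42), Mki67 0.607 (0.229 to 1.53) and Ncapd2 0.487 (0.128 to 1.62). The part of undetected doublets among these deep cells was not tested. In bipolar-like cells Top2a had a ratio of 0.337 (0.208 to 0.532) over all and 0.784 (0.435 to 1.4) in cells not called dividing, from 28 and 24 UMIs, and in amacrine-like cells 1.09 (0.690 to 1.70). That classes differ from each other was not tested.

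A list of 39 other chromosome structure genes was described beside the 10. In dividing cells its median log2 difference between the libraries was 0.01, with 16 genes below and 23 above 0, none at least 1.25-fold lower, against 7.9% of all genes, and 3 at least 1.25-fold higher, a share below the 10.3% of all genes. The 3 were Mau2, a subunit of the cohesin loader (ratio 1.53, 1.37 to 1.71), Rmi1, which works with topoisomerase III (1.34, 1.18 to 1.53), and the mitotic kinase gene Plk1 (1.26, 1.15 to 1.38). The lowest were the cohesin genes Stag1 (0.833), Rad21 (0.909) and the cohesin protector gene Sgol1 (0.913). From the first to the last bin of position 11 of 37 genes of the list were at least 2-fold higher in both libraries, against 4.84% of all genes, and 1 was lower, against 5.19%.

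By role, 3 of 14 cohesin genes rose 2-fold (Rad21, Cdca5 and Sgol1), 0 of 5 genes of the Smc5/6 complex, 4 of 6 genes of the chromosome periphery and Ki-67 partners (Cdca2, Kif4, Kif22 and Incenp), 1 of 6 topoisomerase and repair genes (Tdp1) and 3 of 5 regulators of condensin (Cdk1, Plk1 and Aurkb). Plk1 gained most, 12.6-fold in DKO and 16.4-fold in DKO_Skp2het, followed by Cdca2, which brings a phosphatase to mitotic chromosomes (5.76-fold and 7.28-fold), and Aurkb (4.35-fold and 4.60-fold). Plk1, Cdk1, Aurkb and Cdca2 are also in the lists that defined dividing cells or position, so their rise is in part fixed by that choice. The 1 gene that was lower was Topbp1, a replication checkpoint factor, at 171.3 and 76.2 CPM in the first and last bins of DKO and 173.5 and 72.8 CPM in DKO_Skp2het.

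Among genes with at least 500 UMIs, 8962 were compared with each of 5 of the genes by the Pearson correlation of log2 levels over the 44 cluster profiles. Nearest to Top2a were Nusap1 (0.97), Hmgb2 (0.96) and Tmpo (0.96), nearest to Mki67 were Nusap1 (0.96), Cenpq (0.96) and Sgol1 (0.96), and nearest to Smc2 were Nusap1 (0.97), Pbk (0.97) and Cdk1 (0.96). Ncapd3 had other neighbours, Smc6 (0.92), Ssrp1 (0.91) and Mcm10 (0.91), the last 2 being genes of histone handling and replication. Top2b was nearest to Mir124-2hg, the host transcript of a neuronal microRNA (0.91), Yeats4 (0.89) and Cnrip1 (0.88). Among the members, Ncapg2 and Ncapd3 had a correlation of 0.90, and Top2a and Smc2 of 0.96.

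Both Ncapg and Top2b carry a limit of counting. In the annotation the 3′ end of Ncapg is overlapped by Lcorl and that of Top2b by Rarb, each on the opposite strand. Whether the authors' counting used strand is not given in the sources used here, so reads of these pairs may not be told apart.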

How the data were processed

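Per the labels' protocols, dissociated peripheral retina went into a droplet-based 3′ kit, with 1 library for each genotype. The authors deposited unnormalized UMI counts by gene and barcode, made with Cell Ranger 2.2.0 on mm10 per the submitters' processing notes. Strand handling and their barcode filter are not stated in those notes or labels. Barcodes under 500 genes or over 20% mitochondrial UMIs were dropped, and the highest doublet scores (2 simulated doublets per cell) were removed at 0.8% per 1000 barcodes, 105 in DKO and 216 in DKO_Skp2het. Depth ran from 3420 UMIs per barcode upward in DKO and from 2387 in DKO_Skp2het.

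Each cell was scaled to a total of 10000, then log-transformed. From 2000 variable genes without the 10 genes and the cell cycle lists, 30 principal components and 15 neighbours gave 27 clusters with leidenalg 0.10.2 at resolution 1. A cluster was named from 18 marker lists where the mean log2 fold of the markers was at least 1, at least 3 markers exceeded 2-fold, and the type had more markers than any other among the 10 leading genes. For comparisons, UMIs were summed per library and population and given as CPM, and log2 differences used CPM plus a pseudocount of 5, which understates differences of low genes. No test between genotypes was made, as each has 1 library. A call means at least 1.25-fold between libraries, or at least 2-fold in the same direction in both libraries within them, among genes with at least 100 UMIs. Poisson-based and Clopper-Pearson intervals (95%) treat the UMIs of a cell as independent. Of the listed genes, 27645 matched GENCODE release M21 (GRCm38), and promoter windows come from RefSeq (GRCm38.p6).

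The members, lists and rules were chosen with earlier results of these data known. All 10 members are named; of the chromosome structure list, the 3 genes per direction with the largest difference between libraries in dividing cells and the 3 with the largest gain over position; for 5 members, the 3 genes most like them. Genes given by name beyond these were chosen after their values were seen. The ratios and intervals of the library comparison were tested on simulated Poisson counts. The dividing call, position, doublet scores and clustering were not tested in that way. Alternatives covered the filters, doublets, depth, pseudocount, scaling, the dividing and position rules and the clustering. The work used matplotlib 3.10.9, igraph 0.11.9, scikit-learn 1.9.0, pandas 2.3.3, scipy 1.17.1 and numpy 2.4.6 under Python 3.11.15.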

Additional observations from a re-analysis of the deposited data

How the results depend on the processing

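Of the main results under the alternatives, 43 values stayed close to the reported ones, 8 moved and 2 of these changed sign. With both libraries restricted to cells at or above the DKO minimum of UMIs, the median log2 difference of the 10 genes was -0.086 over all kept cells and turned from -0.011 to 0.036 in dividing cells. With 5 or more core UMIs it turned to 0.042 in dividing cells, and the count of genes 2-fold higher in the last position bin was 0, while with 3 bins of position that count was 2 and the gain in the condensin ratio of DKO_Skp2het was 2.49. The correlation of Top2a and Top2b over clusters was -0.12 at resolution 0.5 and -0.36 at resolution 1.5. The cause was not tested.

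The ratio of the last over the third bin was below 1 in 7 of 7 settings for Ncapg2 (0.497 to 0.546 in DKO, 0.287 to 0.393 in DKO_Skp2het) and for Ncapd3 (0.472 to 0.603 and 0.374 to 0.461), settings that were chosen after seeing the data. In dividing cells Ncaph stayed lower in DKO_Skp2het (-0.37 to -0.20, log2) and Ncapd2 higher (0.15 to 0.21) in 10 of 10 settings. The sign of Smc4 in dividing cells was kept in 6 of 10, of Top2a and Smc2 in 8 of 10 and of Ncapg2 in 9 of 10. A change of pseudocount cannot alter a sign, and the limit of 1000 genes per barcode returned the main values. Such settings are included in these counts but could not differ. Median-of-ratios scaling moved the median of all genes in dividing cells from 0.025 to -2.6e-05 and turned Smc4 from 0.015 to -0.015 (log2). No paired analysis was possible because each genotype has 1 library, and no replicate could be left out. Depth limits the genes with few UMIs, Ncapg, Ncaph and Ncapg2, most in the small classes.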
